A study of Homo sapiens with 2 samples.

Results

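The 10 genes described here belong to the intermediate filament family and carried RBMS3-binding sites in MDA-MB-231 cells: vimentin (VIM), 6 keratins (KRT7, KRT8, KRT18, KRT19, KRT80 and KRT81) and 3 lamin genes (LMNA, LMNB1 and LMNB2). A site was assigned to a gene when its deleted base lay inside the GENCODE release 44 gene on the same strand. This gave 52 of the 27706 sites in the list, 14 in VIM, 19 in the keratins and 19 in the lamin genes. The genes were chosen as a family with sites, so the fact that each has one is not a result. Of 20046 protein-coding genes, 37.6% had at least 1 site on their strand.

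RBMS3 is an RNA-binding protein, and the study mapped where it contacts RNA by CLIP-seq, in which ultraviolet light crosslinks protein to RNA and the protein is then recovered with its RNA. MDA-MB-231 is an established human triple-negative breast cancer line, and the cells expressed FLAG-tagged RBMS3 because the authors had no suitable antibody for the endogenous protein. The 2 biological replicates formed the sole group and were pooled by the authors before sites were called. The title of replicate 2 gives MDA-MB-231 whereas its source label gives MDA-MB-232, and it was treated here as its title says. No untagged cells, input RNA or other control library were analysed here, and no value per replicate is given, so no test between samples could be made. The tagged protein came from an introduced construct, and its amount relative to endogenous RBMS3 was not analysed here. The cell line label could not be checked against marker genes, because the list holds bound sites and not transcript levels.

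For each site the list gives the number of unique pooled sequence tags that cover the deleted base and the number of tags that lack it. Such a deletion is a mark that a crosslinked amino acid can leave during reverse transcription. The deletion percentage is the share of covering tags that carry the deletion. Without a control library, deletions of other origin could not be told apart. The number of tags follows the amount of the transcript as well as the binding of the protein, and transcript amounts were not measured here. Percentages carry 95% Wilson intervals, which cover counting error only. Sites a few nucleotides apart share tags and are not independent.

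Intermediate filaments are rope-like polymers that give cells and nuclei mechanical strength. Vimentin builds the cytoplasmic filaments of mesenchymal cells and is a widely used marker of the epithelial to mesenchymal transition, whereas type I and type II keratins pair to build the filaments of epithelial cells. Lamins form the meshwork under the inner nuclear membrane: LMNA makes lamin A and lamin C by alternative splicing, and LMNB1 and LMNB2 make the B-type lamins. The 3′UTR is the part of an mRNA after the stop codon, and its last stretch usually holds the poly(A) signal AATAAA, here in DNA letters, which directs cleavage and polyadenylation.

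The following stretches are shown because most deletions in these genes lay in or beside them. Each is written 5′ to 3′ along the transcript from the hg38 genome, with the poly(A) signal in capitals.
VIM, chr10:17237561-17237590, plus strand: tggttctgcttcAATAAAtctttggaaaaa
KRT81, chr12:52285914-52285943, minus strand: gatctgtgtttcAATAAAttaatgtagcca
KRT7, chr12:52248874-52248903, plus strand: agaatagcttccAATAAAgcagcctcattc
KRT18, chr12:52952870-52952899, plus strand: gagcaggaggccAATAAAaagttcagagtt
KRT19, chr17:41523623-41523652, minus strand: tcctgacctgccAATAAAaatttatggtcc
LMNB2, chr19:2428167-2428196, minus strand: gtacaacactccAATAAAcattttgatttt
LMNB1, chr5:126836984-126837013, plus strand: gtgacattaacaAATAAAaaagctctttta

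The last stretch of LMNA holds no AATAAA. It is shown with its most deleted base in capitals, together with the T runs of VIM and LMNA, the sites with the highest deletion percentage in each of these genes, whose deleted T is in capitals. Inside a run of equal bases the lost one cannot be told from its neighbours, and the list gives the lowest coordinate.
LMNA, last stretch, chr1:156140049-156140077, plus strand: ctcctccccaaatcAatacactagttgtt
LMNA, T run, chr1:156139229-156139257, plus strand: ttttttcttctgtaTttttttttctaaga
VIM, T run, chr10:17237516-17237544, plus strand: accattaaaactgcTtttttttttccagc

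In all 10 genes together, 50 of the 52 sites lay in 3′UTRs (96.2%, 95% interval 87.0 to 98.9), against 76.6% of all listed sites. The 2 others were a noncoding exon and an intron at the 3′ side of KRT7. Among sites with the deletion in under 30% of tags, 49 of 50 were in 3′UTRs (98%), against 18487 of 19426 in the list. The gap to the list was thus much smaller at such sites. Most of the 3′UTR sites were close to an annotated transcript end. A total of 47 of 50 lay within 100 nt of one, against 69.3% of all 3′UTR sites, and the median distance was 17.5 nt (quartiles 11.25 and 31) against 34 nt. LMNA has 32 different annotated ends, which shortens distances to the nearest one, and without LMNA the median was 19.5 nt. Measured to the end of each gene's canonical transcript alone, 12 of 14 vimentin sites, 16 of 17 keratin sites and 12 of 19 lamin sites were within 100 nt.

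These sites were deep. Their median was 18325.5 tags in 3′UTRs, against 4927 over all 3′UTR sites, and the deletion was present in under 30% of tags at 50 of the 52, against 70.1% of the list. The genes differed widely among themselves. Together the 10 genes held 11700 deletions, or 0.456% of the 2563207 in the list, and VIM alone held 52.6% of those (95% interval 51.7 to 53.5). KRT81 followed with 18.7% and LMNA with 11.4%, and the 5 keratins other than KRT81 held between 47 and 191 deletions each. The interval for VIM takes these deletions as independent, although neighbouring sites share tags. The VIM share was 33.2% by tags at the deepest site and 43.6% by the largest site. By tags at the deepest site, VIM ranked 58 and KRT81 102 among the 7542 protein-coding genes with a site, LMNA 487, LMNB2 686 and LMNB1 1251. The remaining keratins ranked from 1859 (KRT7) to 4997 (KRT8), on both sides of the median gene, whose deepest site had 2561.5 tags. Without replicate values, error beyond counting could not be measured for the order of neighbours in this ranking.

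**Figure D1:**
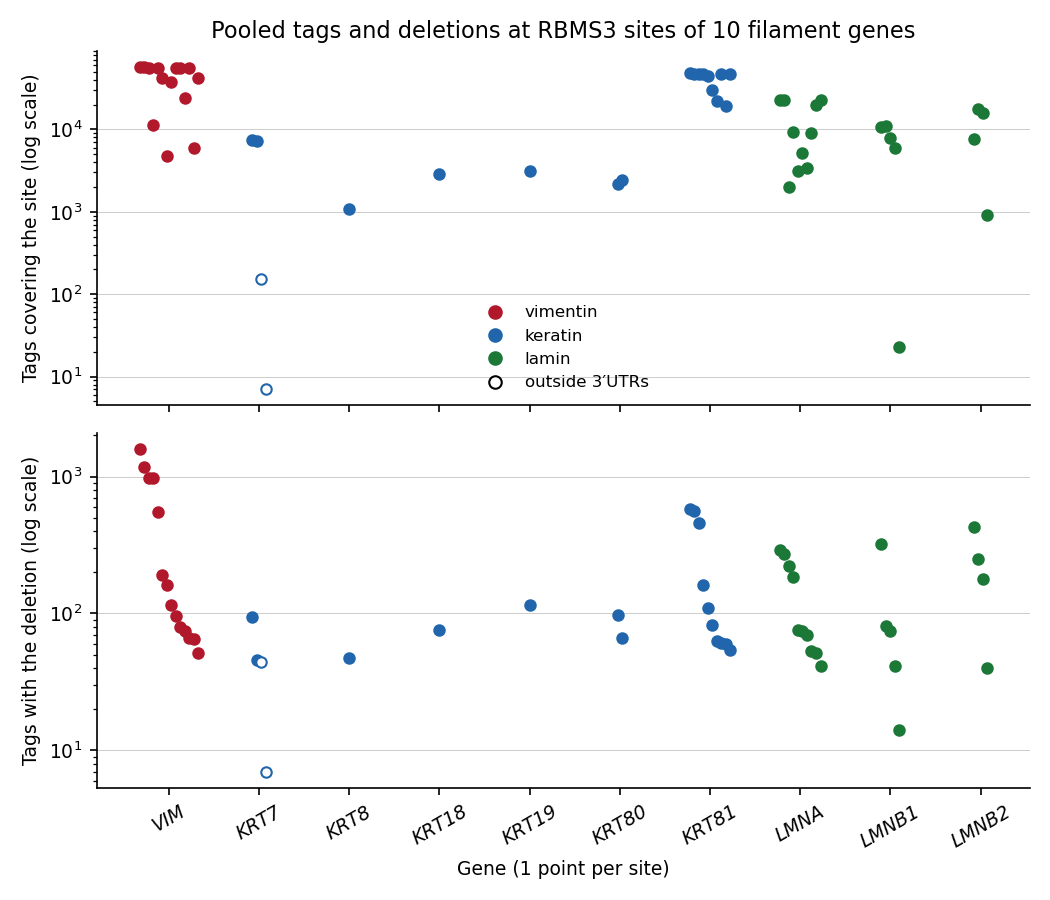
Tags covering each site (top) and tags with the deletion (bottom) for the 52 sites, by gene, on log axes, with sites of a gene ordered by deletions. VIM and KRT81 sites reach 57472 and 47804 tags, the single sites of KRT8, KRT18 and KRT19 lie between 1085 and 3104, and the 2 open points are the KRT7 sites outside 3′UTRs.

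VIM (chr10:17228241-17237593, plus strand) had 14 sites, all in its 322-nt 3′UTR. The number of sites was exceeded by 172 of the 7542 genes, and its 6152 deletions ranked 19. The most deleted base was the C directly before the poly(A) signal, at 17237572, which was missing in 1588 of 57225 tags (2.78%, 2.64 to 2.91). The next was an A in the pair of A that opens the signal, at 17237573, with 1168 of 57472 tags (2.03%, 1.92 to 2.15). A T in the run of 3 T just past the signal, at 17237581, followed with 973 of 56141 tags (1.73%, 1.63 to 1.84). The main VIM signal was therefore a tight group centred on the poly(A) signal, 12 to 21 nt before the annotated end at 17237593.

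The other 11 VIM sites had 51 to 969 deletions. Among these, the T run at 17237530, 10 T long and 63 nt before the end, had 969 deletions in 11238 tags. Its 8.62% (8.12 to 9.16) was the highest percentage in VIM, above the interval of the C before the signal, on far fewer tags. A separate pair of sites lay far upstream. The A at 17237295 (162 of 4798 tags, 3.38%) and the T at 17237314 (65 of 6017 tags, 1.08%) were 298 and 279 nt before the end, beside another AATAAA. Tags thus rose along the 3′UTR, from 4798 at the upstream pair to 11238 at the T run and 57472 at the distal signal. For 4 of the 14 VIM windows of 51 nt, another place in hg38, on chromosome 6, matched 40 to 45 bases, and how the aligner treated such tags is not given in the sources used here. The windows of the 3 most deleted sites had at most 32 matching bases elsewhere. The window of the site at 17237564 also holds these 3 bases, and it matched 44 of 51 bases on chromosome 6. The origin of tags at the main VIM sites is therefore not certain.

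KRT81 (chr12:52285913-52291534, minus strand), a type II hair keratin, had 10 sites in a single cluster 9 to 40 nt before its only annotated end. The largest was in the run of 3 T ahead of the signal, at 52285933, with 582 of 47804 tags (1.22%, 1.12 to 1.32). The A at 52285930, inside the signal, had 557 of 47258 tags (1.18%, 1.09 to 1.28). The A at 52285922, 9 nt before the end, had 460 of 46586 tags (0.987%, 0.902 to 1.08). The top 2 percentages had overlapping intervals, and the other 7 sites had 54 to 162 deletions, each in at most 0.341% of tags. KRT81 was thus close to VIM in depth and in the place of its deletions, with lower percentages at its largest sites. Hair keratin genes are near copies of each other, yet no KRT81 window had more than 23 of 51 bases matching another place. The related hair keratin KRT86 spans the cluster on the opposite strand.

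The simple epithelial keratins had few and shallower sites. KRT7 (chr12:52232520-52252186, plus strand), a type II keratin of glandular epithelia, had a site at the pair of A that opens its signal, at 52248886, with 94 of 7404 tags (1.27%, 1.04 to 1.55). Its T at 52248882, ahead of the signal, had 46 of 7231 tags (0.636%, 0.477 to 0.847). The 2 KRT7 sites outside 3′UTRs were unlike these, with 44 of 153 tags at 52252144 (28.8%) and 7 of 7 at 52251297 (100%, 64.6 to 100). Both also lie inside KRT86 on the same strand, so their gene is uncertain. The window at 52251297 also had 45 other places with 40 or more matching bases, the best with 42. KRT19 (chr17:41523617-41528308, minus strand), a small type I keratin, had 1 site 13 nt before its end at 41523630, a T in a run of 3, with 115 of 3104 tags (3.70%, 3.10 to 4.43). No other place in hg38 matched 40 or more bases of its window, and the best matched 32. The window runs past the annotated end, so a copy of the transcript could fall short of 40. The count of such places therefore does not settle the origin of the KRT19 site.

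KRT8 and KRT18 are obligate partners, the type II and type I keratins of simple epithelia. KRT18 (chr12:52948871-52952906, plus strand) had 1 site, at the pair of A that opens its signal at 52952882, with 76 of 2873 tags (2.65%, 2.12 to 3.30). KRT8 (chr12:52897187-52949954, minus strand) had 1 site in a run of 11 T at 52897224, with 47 of 1085 tags (4.33%, 3.27 to 5.71). The partners thus each had a single site beside the poly(A) signal, with fewer tags than the median of 4927 over all 3′UTR sites. The origin of both sites is uncertain. The KRT8 window matched another place over all 51 bases, with 14 places at 40 or more, and the KRT18 window had 26 such places, the best with 49 bases. KRT80 (chr12:52168996-52192014, minus strand), a type II epithelial keratin with a 2402-nt 3′UTR, had 2 distant sites. The T at 52169536 (97 of 2156 tags, 4.50%, 3.70 to 5.46) lay 540 nt before the canonical end and 13 nt before the end of a retained-intron transcript. The T at 52169008 (66 of 2439 tags, 2.71%, 2.13 to 3.43) lay 12 nt before the canonical end, and 363 other places matched 40 or more bases of its window. Each KRT80 site had its own AATAAA within 25 nt.

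LMNA (chr1:156082573-156140081, plus strand) had 10 sites in 3 clusters, and none of them had AATAAA within 25 nt. The clusters lay at different annotated ends of the gene. The cluster next to the distal end at 156140081, where the canonical lamin A transcript (664 codons) finishes, had 4 sites and 652 deletions, 48.9% of those in LMNA. Its largest sites were the A at 156140063 with 289 of 22526 tags (1.28%, 1.14 to 1.44) and the T at 156140073 with 271 of 22647 tags (1.20%, 1.06 to 1.35). All 4 windows held AATACA, a hexamer 1 base away from the poly(A) signal, which was present in 4.38% of the 10047 3′UTR windows of the whole list that lacked AATAAA. The 4 windows overlap, so this is 1 occurrence of the hexamer and not 4.

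The middle LMNA cluster, 777 to 838 nt before the distal end, had 5 sites and 606 deletions (45.4%). It held the third largest LMNA site, the run of 9 T at 156139243, with 224 of 2024 tags (11.1%, 9.77 to 12.5). Tags were fewer here than at the distal end, with 2024 to 9266 a site. The last site of this cluster, at 156139304 (70 of 3385 tags, 2.07%), lay in a run of 14 A, and 15 of the 20 bases after it were A. RNA was captured and primed with oligo(dT), which can also anneal to an internal A run, and the part of this in the LMNA cluster was not tested. From the first site of the cluster to 50 nt past its last, 4 protein-coding ends are annotated. Of the 4 transcripts with the 664 codons of lamin A, 1 ends at the distal end and the others end up to 856 nt before it, so lamin A ends are not confined to the distal cluster.

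The most upstream LMNA site, a C at 156137842, had 76 of 3110 tags (2.44%, 1.96 to 3.05) and ATTAAA, the commonest variant of the poly(A) signal, in its window. It lay 23 nt before a lamin C end (572 codons) at 156137865, next to another at 156137866. The site was inside an intron of the canonical lamin A transcript, and a retained-intron transcript ended 2 nt past it, at 156137844. Sites were therefore listed beside the lamin C ends and beside the canonical lamin A end, and those at the latter were deeper. In 3 of the 10 LMNA windows, all in the distal cluster, 40 or more bases matched a place on chromosome 10. The closest match, of 48 bases, was at the most deleted site at 156140063. The remaining window of this cluster, at 156140073, matched 38 bases there. The origin of tags in the distal cluster is therefore uncertain, and so is its greater depth.

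**Figure D2:**
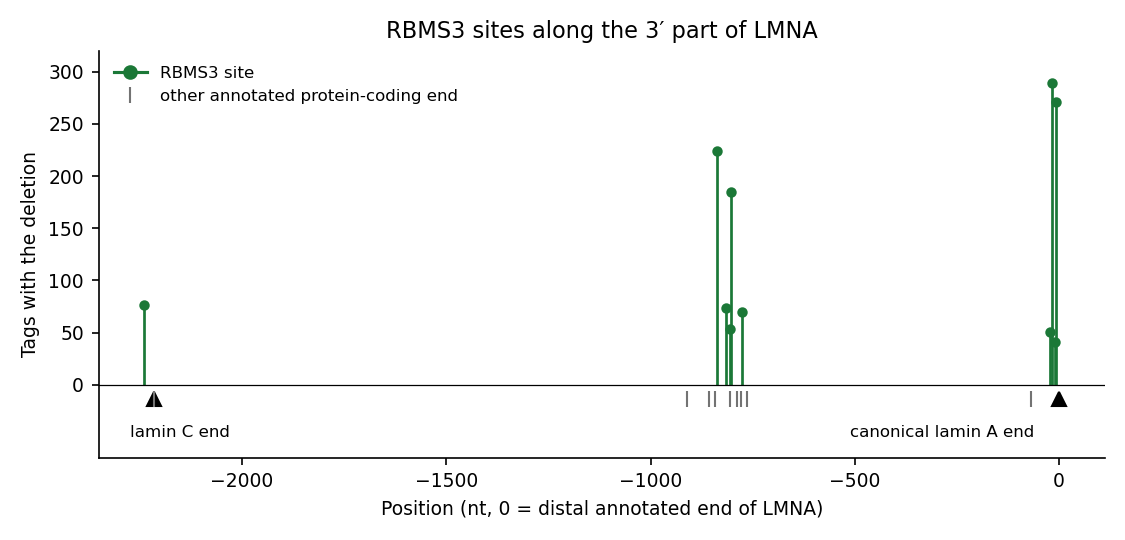
Tags with the deletion at each LMNA site against its position in nt from the distal annotated end. Triangles mark the last lamin C end and the canonical lamin A end, and ticks mark other annotated protein-coding ends. The 10 sites form 3 groups, 1 site beside the lamin C end, 5 sites 777 to 838 nt before the distal end and 4 sites within 23 nt of the canonical lamin A end.

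LMNB2 (chr19:2427638-2456959, minus strand) had 4 sites before an annotated end at 2428166. The run of 6 T at 2428197, ahead of the poly(A) signal, had 428 of 7648 tags (5.60%, 5.10 to 6.13). The A at 2428183, inside the signal, had 251 of 17463 tags (1.44%, 1.27 to 1.62), and the T at 2428173, past it, had 178 of 15957 tags (1.12%, 0.964 to 1.29). The T run thus had the most deletions of the 4 LMNB2 sites, although tags were fewer there than over the signal. The remaining site, a T at 2428229, had 40 of 905 tags (4.42%). In 3 of the 4 LMNB2 windows, 40 or more bases matched another place, with at most 50. That closest match was at the T run at 2428197, so the origin of this site is uncertain as well.

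LMNB1 (chr5:126776623-126837020, plus strand) had 5 sites, and its deletions lay downstream of the signal. The run of 4 T at 126837009 had 324 of 10839 tags (2.99%, 2.68 to 3.33), the T at 126837007 had 81 of 10970 (0.738%, 0.595 to 0.917) and the A at 126837013 had 74 of 7774 (0.952%, 0.759 to 1.19). Upstream of the signal a C at 126836979 had 41 of 5934 tags (0.691%). The last site, 432 nt from an end, stood apart with 14 of 23 tags (60.9%, 40.8 to 77.8). No LMNB1 window had more than 26 bases matching another place. The B-type lamins thus differed from LMNA in having AATAAA beside 8 of their 9 sites. Most of these windows overlap and share a signal, so the 8 are not separate occurrences.

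**Figure D3:**
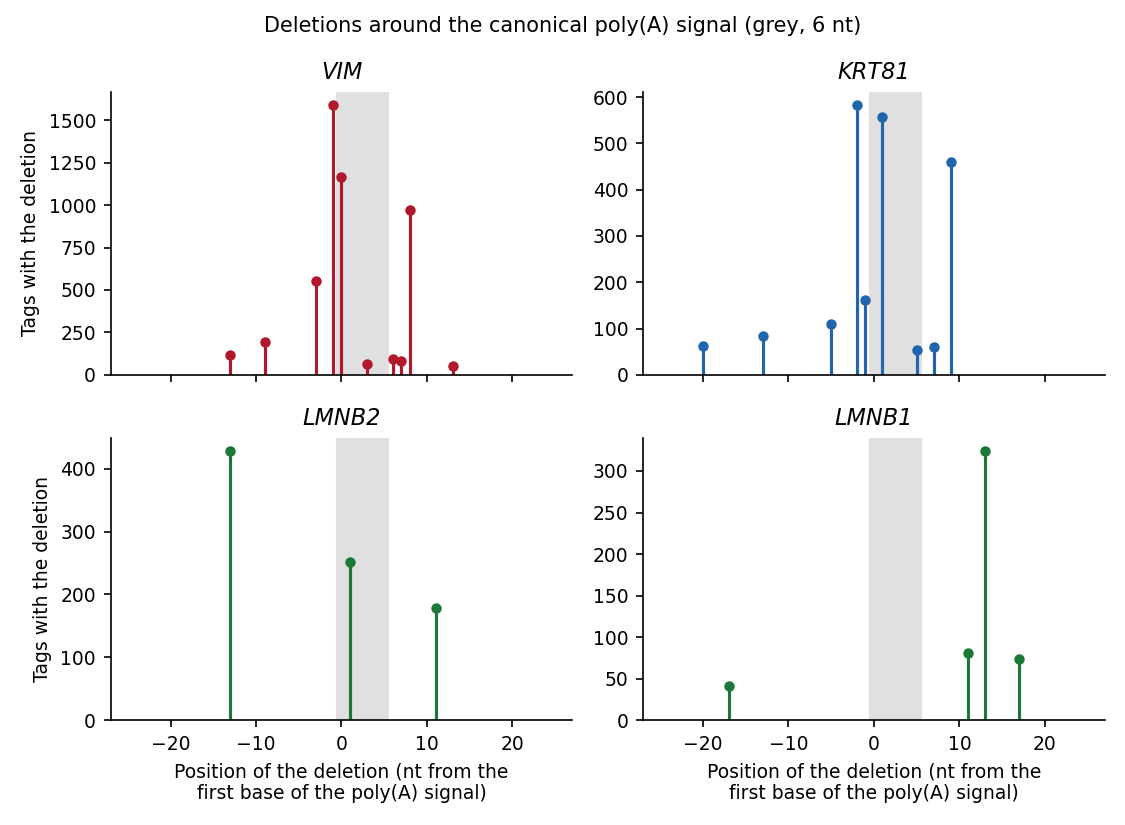
Tags with the deletion against the position of the deleted base relative to the first base of the distal poly(A) signal (grey, 6 nt), for VIM, KRT81, LMNB2 and LMNB1, each on its own vertical scale. VIM peaks at 1588 directly before the signal, KRT81 has 582 before it and 557 inside it, LMNB2 has its highest value of 428 ahead of the signal, and LMNB1 has 324 past it.

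The poly(A) signal was within 25 nt of 36 of the 50 3′UTR sites (72%, 58.3 to 82.5), against 52.7% of all 3′UTR sites. All 14 sites without it were in LMNA (10), VIM (2), KRT81 (1) and LMNB2 (1). With 1 site per cluster, the share was 12 of 15 (80%, 54.8 to 93.0) against 47.3% of 9975. Since nearness to an end and the signal go together, sites near an end with a low percentage were compared, and here 33 of 47 (70.2%, 56.0 to 81.3) had the signal against 62.0%, which lies inside the interval. Of the 36 deletions near a signal, 15 were upstream of it, 8 inside and 13 downstream. Of all 3′UTR sites with AATAAA within 25 nt, 17.6% were inside and 36.4% downstream, with the rest upstream.

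The AUA pattern, the sequence element the study examined for RBMS3, was less frequent at the 3′UTR sites of these genes than at all 3′UTR sites. With 1 site per cluster this was not clearly so. It did not hold with a shorter core of 5 nt, near 74% of these sites and 75.7% of all 3′UTR sites. The pattern searched on the transcript strand is 7 nt long. It has ATA at its core, ahead of that a base other than C and a base that is A or T, and after it a base that is A or T and a closing A. It overlaps the poly(A) signal, since AATAAA after any base but C is itself a match. It was within 25 nt of 11 of 50 sites (22%, 12.8 to 35.2), against 51.7% of all 3′UTR sites. A match that does not contain AATAAA was near 2 of 50 sites, against 15.5%, and these were in KRT80 and LMNB2. With 1 site per cluster, the pattern was near 6 of 15 (40%, 19.8 to 64.3). The 47.8% of all 3′UTR sites counted in the same way lies inside that interval. VIM, KRT81 and LMNA had 14, 10 and 10 of the sites, and 2 of these, both in the upstream pair of VIM, were near the pattern.

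The base before the poly(A) signal accounts for part of these counts by construction. The genes have 12 different AATAAA near their sites, and 6 are preceded by C, those printed above for VIM, KRT81, KRT7, KRT18, KRT19 and LMNB2. Another 4 are preceded by A, 2 by G and none by T. In the whole list, C precedes 19.7% of 5107 signals, A 42.3%, T 27.5% and G 10.4%. A signal preceded by C cannot match the AUA pattern.

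T was the deleted base at 25 of the 50 3′UTR sites (50%, 36.6 to 63.4), against 65.5% of all 3′UTR sites. A followed with 14, C with 8 and G with 3. Over all 3′UTR sites, this share was lower at deep sites, and the part of depth in the value for these genes was not tested. Among 3′UTR sites with at least 10000 tags, T was deleted at 14 of 30 in these genes (46.7%, 30.2 to 63.9) and at 50.3% of 6674 in the list.

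The deletion percentage followed the length of the T run in these genes. Sites in runs of 5 or more T were 4 of 50, against 8.57% of all 3′UTR sites, and belonged to VIM, KRT8, LMNA and LMNB2. Their median was 7.11% of tags (4.33 to 11.1). The median was 2.35% at the 10 sites in runs of 3 or 4 T and 0.457% at the 11 sites in runs of 1 or 2. Sites with A, C and G deleted had medians of 1.22%, 0.328% and 0.412%. Over all 3′UTR sites with a low percentage, the same order of T runs held, with 3.32%, 2.71% and 0.751%. In VIM, LMNA and LMNB2 the long T run had the highest percentage of the gene's sites, with intervals above those of all other sites except LMNB2 at 2428229. Gaps in long runs can also come from polymerase slippage and from alignment, and their part was not tested. No listed site under 30% had fewer than 32 deletions, so sites with few tags were listed only at higher percentages. The run lengths were not compared at equal depth.

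**Figure D4:**
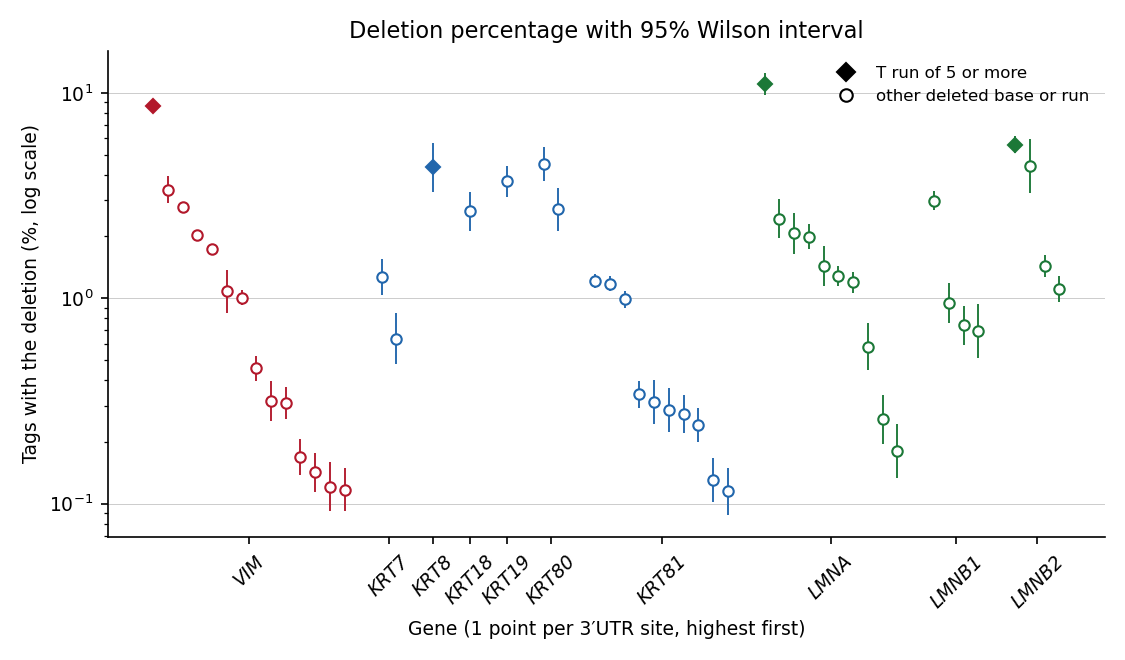
Percentage of tags with the deletion at each 3′UTR site with a value under 30%, on a log axis, highest first within each gene, with 95% Wilson intervals and diamonds for T runs of 5 or more. The diamonds of VIM (8.62%), LMNA (11.1%) and LMNB2 (5.60%) top their genes, and KRT81 stays at or below 1.22%.

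Other genes of the filament system were taken as 3 lists. Of 27 other intermediate filament genes, 3 had a site (11.1%), below the 37.6% of all protein-coding genes, and 2 had a low-percentage 3′UTR site, against 27.6%. Many of these genes are used in particular tissues, and their transcript levels in these cells were not measured here. The epidermal keratin KRT10 had the largest site, with 129 of 3273 tags (3.94%). The site of KRT86 with the most deletions was the one it shares with KRT7, and the synemin gene SYNM had 17 of 17 tags at a coding exon.

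Of 17 partners of the nuclear lamina, 16 had a site (94.1%, against 37.6% of all protein-coding genes) and 12 a low-percentage 3′UTR site (70.6%, against 27.6%). These lists were drawn up with earlier results of these data known, and the transcript levels of their genes were not measured here either, so the shares describe the lists and nothing particular to them. TMPO, which makes the lamin-binding LAP2 proteins, had 30 sites, the largest with 795 of 34494 tags (2.30%). SUN1, which links the lamina to the cytoskeleton, reached 354 of 9610 tags (3.68%), and FNTA, a subunit of the enzyme that farnesylates prelamin A and the B-type lamins, 268 of 13749 (1.95%). Of 11 cytolinkers and filament anchors, 7 had a site (63.6%, against the same 37.6%) and 5 a low-percentage 3′UTR site (45.5%, against 27.6%). The largest were in dystonin (DST, 337 of 16375 tags, 2.06%), plectin (PLEC, 171 of 6247, 2.74%) and the actin and microtubule crosslinker MACF1 (148 of 10824, 1.37%). The largest sites of TMPO, SUN1, FNTA, DST, PLEC and MACF1 lay 14 to 78 nt before an annotated end.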

How the data were processed

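RBMS3 CLIP-seq was performed on MDA-MB-231 cells that expressed RBMS3 with a FLAG tag. Cells were crosslinked with ultraviolet light, complexes were recovered on anti-FLAG beads, and RNA was trimmed, poly(A)-tailed, captured with oligo(dT) and reverse transcribed with primers holding molecular identifiers. RNA that already ends in poly(A) can be captured in the same way. The authors aligned reads to hg38, collapsed them to unique tags with the CLIP Tool Kit (version not given in the sources used here), pooled both replicates and called deletion sites with a false discovery rate filter and a filter on a fold without a stated definition. The deposited list gives counts per site of pooled tags and of tags with the deletion, not normalized. Library totals were not analysed here. Calling on pooled tags means that a site may rest on 1 replicate.

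Each interval is 21 nt, and its centre was taken as the deleted base, a rule checked at the mitochondrial position 3107, an N in the reference. Of 22334 sites in runs of equal bases, 100% lay at the lowest coordinate. Positions are 1-based. GENCODE release 44 gave the placement, with 3′UTR taking precedence over 5′UTR, coding exon, noncoding exon and intron. The distance to an end is that to the nearest downstream annotated end of any transcript of the gene. Motifs were searched in windows of 51 nt, neighbours within 50 nt were joined into clusters, for which the most deleted base stood, and windows were compared with the genome by BLAST 2.17.0. Named genes are the 10 members, with the 3 sites with most deletions in full where there are more than 3, and the 3 genes with the largest site in each list. Further sites, such as the T run of VIM, were named after their values were seen. The members and lists were chosen with earlier results of these data known. Functions were tested on simulated data. No test was made, since there is 1 group. Alternatives were other minimum deletions, percentages, clusters, windows, motifs, transcripts and position rules, with further ones chosen after seeing the data. Software was Python 3.11.15 with numpy 2.4.6, scipy 1.17.1, pysam 0.24.0 and matplotlib 3.10.9, and samtools 1.23.1.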

Additional observations from a re-analysis of the deposited data

How the results depend on the processing

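Of 47 recomputed values, 37 stayed within the interval or the tolerance set for them and 10 moved. With 1 site per cluster, the 52 sites became 17 and the share with the AUA pattern rose to 40%. With at least 50 deletions, 100% of 44 sites were in 3′UTRs. The same share over all listed sites with that many deletions was not computed. With windows of 10 nt on each side, AATAAA was near 42% of sites (26.2% of all 3′UTR sites) and the AUA pattern near 8% (23.7%). A shorter AUA core of 5 nt was near 74%, against 75.7% of all 3′UTR sites, so the lower AUA share did not hold with this core. AUA matches without AATAAA were near 4% (15.5%). Where the deleted base differs from both neighbours, T was deleted at 4 of 11 sites (36.4%, against 34.6%). VIM held 33.2% when genes were compared by tags at the deepest site and 43.6% by the largest site. Without VIM, chosen after seeing the data, AATAAA was near 66.7% of sites, the AUA pattern near 25% and T deleted at 50%. The median distance was 17 to 23 nt in every alternative run. Leaving out replicates in turn could not be done with pooled tags. No paired analysis was possible because the replicates form a single group and their tags were pooled. Counting depth limits the shallow sites most: 7 of 7 tags allows 64.6 to 100%.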
